A study of Homo sapiens with 2 samples.

Results

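The histone gene cluster on the short arm of chromosome 6 was examined through its short features, which are annotated genes 300 to 900 bases long with a start between 25.7 and 27.9 Mb of CHM13 v1.1. Of the 63494 features in the count tables, 65 met this rule. A RefSeq name could be tied to 49 of them, and 40 of the names were histone genes, with 6 of linker histone H1, 9 of H2A, 10 of H2B, 6 of H3 and 9 of H4. Among these 40, 3 were pseudogenes by name. The other 9 names belonged to pseudogenes and 1 uncharacterized locus, and 16 features had no name. The histone-named members were 334 to 871 bases long with a median of 487, and 55 of the 65 members had 1 exon interval.

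The study used PAR-CLIP, in which a photoreactive nucleoside is taken up by living cells, UV light crosslinks it to the proteins it touches, and the RNA purified with a tagged protein is sequenced. The cells were HEK293T, an established line from human embryonic kidney that holds SV40 large T antigen. They expressed either the SFB empty vector or SFB-Ku80, where SFB is a tag held by streptavidin and FLAG resin and Ku80 is a subunit of the DNA end-binding Ku complex, and the libraries are called the vector library and the Ku80 library here. Cells of both groups received 0.1 mM 6-thioguanosine and 0.4 J/cm2 of 365 nm UV, and RNA was taken over streptavidin resin and then FLAG resin. The sample labels call the expression of these constructs stable, while the methods describe a Ku80 vector for transient use. No removal of the cells' own Ku80 is described. Each group had 1 library, so no difference between the groups has a replicate check, no test was made, and the intervals given cover counting error only. They are too narrow even for that, because the counts of both mates and of a multimapping read are not independent and no molecular identifiers were stated.

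Replication-dependent histone genes supply the histones that package newly copied DNA. They are expressed in S phase, hold no introns, and give mRNAs that end in a conserved stem-loop in place of a poly(A) tail. The core histones H2A, H2B, H3 and H4 form the nucleosome, and H1 binds the linker DNA between nucleosomes. The genes occur in many near-identical copies, so that a short read from a coding region can map to several of them.

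The promoters of members with many counts, and of H1-1, are shown because the 5′ flanks of histone genes carry short elements that differ between the families. RefSeq windows of GRCh38.p14 were matched by name to 33 of the 40 histone-named members, and H2BP5, H4C1, H4C3, H3C9P, H2AC12, H2BC16P and H3C11 had no entry. The letters CCAAT, or ATTGG on the other strand, lay within the 250 bases before the start in 28 of the 33 windows (84.8%) and in 32.0% of all 35116 RefSeq promoters. They were found in all 6 H1, 8 H2A, 8 H2B and 4 H3 windows that were matched and in 2 of the 7 H4 windows. TATAAA, or TTTATA on the other strand, lay in 24 of the 33 windows (72.7%) and in 10.7% of all promoters. Both searches took the letters alone, and the motifs can share a base at their ends. Some H2A and H2B members lie head to head with 239 to 267 bases between their starts. The windows of such partners can hold mostly the same bases, so that 1 match counts for both genes. The 120 bases before the start are given 5′ to 3′ on the strand of the gene, with matches to either motif on either strand in capitals. On GRCh38.p14 they lie at chr6:26056471-26056590 (minus strand) for H1-2, at chr6:26156209-26156328 (plus strand) for H1-4, at chr6:26017788-26017907 (minus strand) for H1-1, at chr6:27146859-27146978 (minus strand) for H2BC12, at chr6:26032100-26032219 (minus strand) for H3C2, at chr6:27823972-27824091 (plus strand) for H4C11 and at chr6:27831561-27831680 (minus strand) for H4C12.
H1-2: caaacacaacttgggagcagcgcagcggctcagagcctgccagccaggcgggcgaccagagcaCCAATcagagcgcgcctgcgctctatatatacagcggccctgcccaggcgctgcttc
H1-4: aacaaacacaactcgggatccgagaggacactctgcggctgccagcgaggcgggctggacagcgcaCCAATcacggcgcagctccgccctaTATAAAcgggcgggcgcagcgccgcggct
H1-1: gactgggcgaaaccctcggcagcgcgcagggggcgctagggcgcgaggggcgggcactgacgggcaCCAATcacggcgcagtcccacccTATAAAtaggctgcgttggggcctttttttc
H2BC12: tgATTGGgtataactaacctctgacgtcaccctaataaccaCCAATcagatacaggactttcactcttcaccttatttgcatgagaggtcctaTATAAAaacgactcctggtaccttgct
H3C2: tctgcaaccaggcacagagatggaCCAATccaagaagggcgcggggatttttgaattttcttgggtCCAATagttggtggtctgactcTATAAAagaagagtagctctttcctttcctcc
H4C11: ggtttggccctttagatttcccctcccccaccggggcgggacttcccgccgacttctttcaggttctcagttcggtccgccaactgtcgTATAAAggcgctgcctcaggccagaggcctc
H4C12: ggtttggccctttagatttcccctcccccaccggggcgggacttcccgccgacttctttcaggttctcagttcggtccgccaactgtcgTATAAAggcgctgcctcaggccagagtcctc
The windows of H4C11 and H4C12 were alike in 119 of 120 bases and differed by G116T, with positions counted from 1 at the 5′ end of the H4C11 window. Over the full 250 bases these 2 windows shared 245 bases (98.0%), the most of the 528 pairs of windows compared without gaps. The next pair, H2AC13 and H2AC14, shared 205 bases (82.0%).

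In the vector library the 65 members held 14594 of 19775629 counts, and in the Ku80 library they held 7258 of 17892815. Their share of all counts was 0.0738% (exact 95% binomial interval 0.0726 to 0.0750) in the vector library and 0.0406% (0.0396 to 0.0415) in the Ku80 library, a ratio of 0.55. In uniquely mapped pairs the order of the shares was the opposite, with 5133 pairs or 0.0847% of the pairs on features in the vector library and 2262 pairs or 0.157% in the Ku80 library. The share of counts was thus lower and the share of unique pairs higher in the Ku80 library. The libraries held 29863974 and 22173753 read pairs, of which 20.3% and 6.51% mapped uniquely to a feature. Of the 6 markers fixed for the HEK293T line, 5 could be named and all 5 had at least 100 counts, with 2049 counts in the vector library and 573 in the Ku80 library in sum. KRT8, KRT18, NEFM and VIM lay 0.44 to 1.93 below the median feature on the log2 scale and PAX2, with 223 and 272 counts, lay 1.71 above it. Of the 6 markers of other cell types, 3 could be named, and they held 1521 and 785 counts, with COL1A1 at 1104 and 78, GFAP at 386 and 699 and CD3E at 31 and 8. Their part in the histone counts was not tested.

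Of the 65 members, 22 had at least 100 counts over both libraries, 37 had 1 to 99 and 6 had none. All 22 had fewer counts in the Ku80 library than in the vector library, as had the median of all features past the same filter. The share of all features with fewer counts there was not computed. Of these 22, 21 carried a histone name. To compare them with the rest of the transcripts, the log2 ratio of the Ku80 library to the vector library was taken with a pseudocount of 1 and the median ratio of the 17670 features past the same filter, which was -1.42, was subtracted. The members lay between -1.08 and 1.16 around this median feature, with a median of 0.57, at the 63.3 percentile of all features, and 16 of the 22 lay above it. Under other scalings of the counts this median was 0.58 with median-of-ratios size factors, 0.05 with TMM factors, -0.23 against the median of the other short features and -0.71 against total counts. Every difference in counts from the median feature given here is lower by 0.52 with TMM factors, by 0.80 against the other short features and by 1.28 against total counts, where all 22 members lay below zero. At the 2-fold limit 3 members (H3C2, H3C11 and H2AC14) were called higher, where 26.8% of all features were, and 1 member (H2BC17) was called lower, where 25.3% of all features were. These are 13.6% and 4.55% of the 22 members, both below the background. The calls turned with the scaling. With TMM factors 0 members were higher and 3 lower (background 15.7% and 37.8%), against the other short features 0 and 4 (10.8% and 44.7%), and against total counts 0 and 9 (5.52% and 56.6%).

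**Figure D1:**
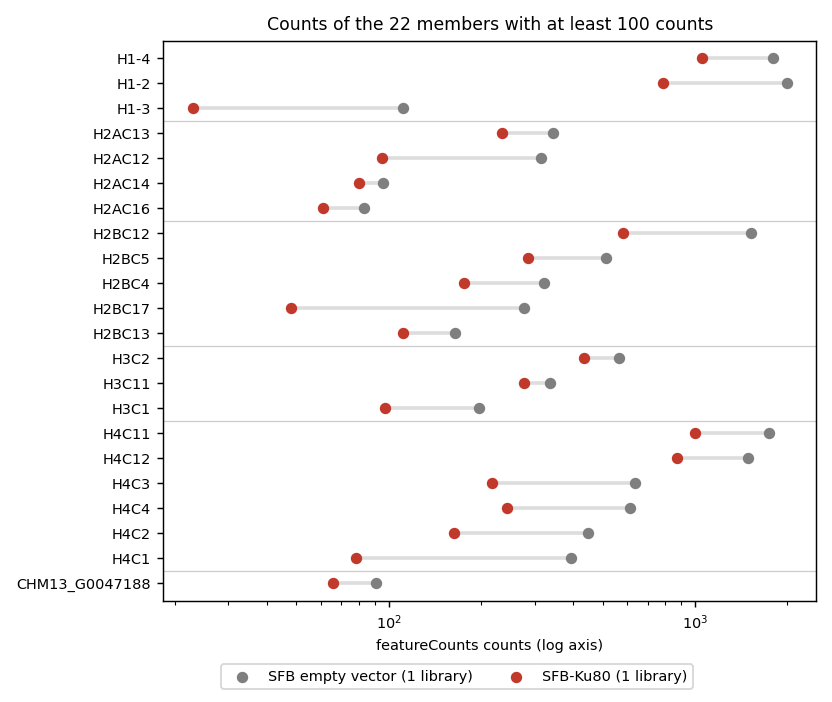
Counts of the 22 members with at least 100 counts over both libraries, 1 row per member, grouped by histone family, on a log axis. Grey points are the vector library and red points the Ku80 library, and in all 22 rows the grey point lies to the right. The median of all features with at least 100 counts was also lower in the Ku80 library.

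In unique pairs, 19 members had at least 40 pairs over both libraries. Their differences from the median feature of the unique pairs, whose log2 ratio was -2.22, had a median of 0.89 and a range of -0.47 to 1.84, and 17 of the 19 lay above it. Here 8 members were called higher, against a background of 24.6%, and none was called lower, against 20.4%. The 8 are 42.1% of the 19. Among the 296 other short features past this filter 44.6% were called higher and 30.1% lower. Among the 8 histone features of the interval outside the length range 62.5% were called higher and none lower. In the sense column alone, 13 of 19 members were called higher and none lower, against backgrounds of 21.4% and 18.8%. That column had its own median feature as reference. The share of sense pairs over all features was 75.1% in the vector library and 67.6% in the Ku80 library. For the members it was 83.5% and 82.9%. Of the 18 members past both filters, all 18 had a larger difference in unique pairs than in counts. The medians subtracted differed, at -1.42 for counts and -2.22 for unique pairs. A member with the same ratio in both measures would thus have the larger difference in unique pairs. Ratios between members within a library do not depend on the scaling. The ratio of H3C2 to H2BC17 unique pairs was 2.18 in the vector library (266 to 122 pairs) and 11.3 in the Ku80 library (204 to 18). The change in this ratio was 5.20-fold (exact interval 3.03 to 9.35), and this and the other ratios between members were chosen after their values were seen.

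**Figure D2:**
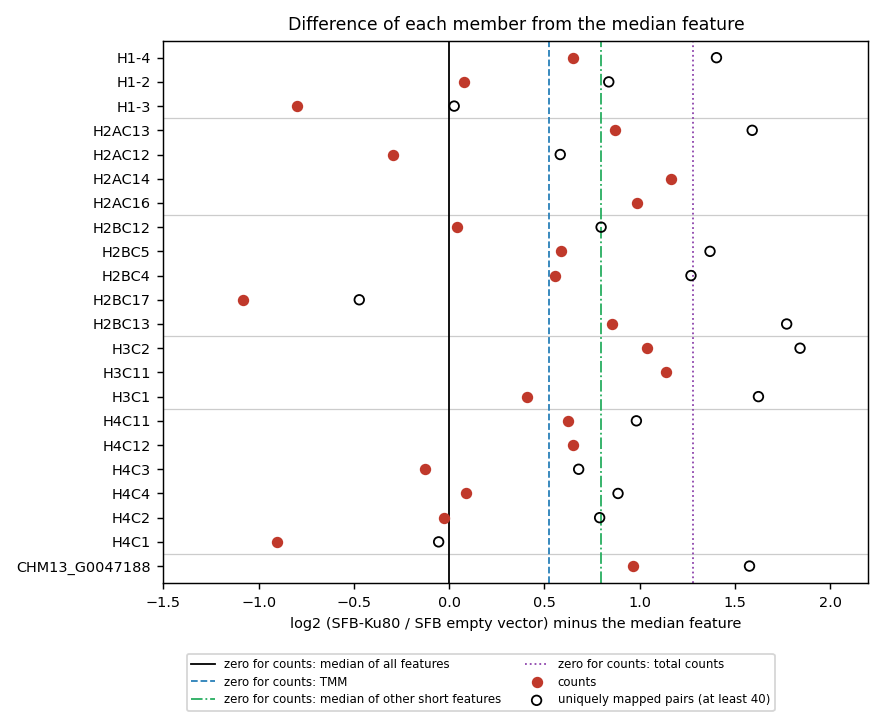
Log2 ratio of the Ku80 library to the vector library minus that of the median feature, 1 row per member with at least 100 counts. Red points are counts, open points unique pairs where at least 40 were present, and the vertical lines mark where the zero for counts lies under 4 scales. The red points span -1.08 to 1.16 and the open points lie to the right of the red ones. Each kind of point has its own reference, a log2 ratio of -1.42 for counts and -2.22 for unique pairs.

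The H1 genes code for the linker histones. H1-2 had the most counts of all members in the vector library, and H1-4 had the most in the Ku80 library. H1-2 (CHM13_G0047080, CHM13 v1.1 chr6:25923905-25924635, minus strand) had 1992 counts in the vector library and 785 in the Ku80 library, a log2 difference from the median feature of 0.08, and 968 and 370 unique pairs. H1-4 (CHM13_G0047086, chr6:26024465-26025251, plus strand) had 1803 and 1056 counts, a difference of 0.65, and 871 and 493 unique pairs. H1-2 was thus the higher of the pair in the vector library and the lower in the Ku80 library. The ratio of H1-4 to H1-2 unique pairs was 0.90 in the vector library and 1.33 in the Ku80 library, a 1.48-fold change (interval 1.25 to 1.75). H1-3 had 111 and 23 counts and a difference of -0.80. Against it, the ratio of H1-4 changed 2.78-fold (1.42 to 5.95) and that of H1-2 changed 1.88-fold (0.96 to 4.02), whose interval includes 1. H1-5 had 5 and 8 counts, and H1-6, a testis-specific H1, had 10 and 0.

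H1-1 had 11 counts and 2 unique pairs in the vector library and 52 counts and 13 unique pairs in the Ku80 library, all fewer than 100, so it entered no count of calls and is named after its values were seen. Its difference in unique pairs from the median feature was 4.44, with a counting interval of 2.78 to 8.11. H1-5 also had more counts in the Ku80 library, and with 1 and 3 unique pairs its difference was 3.22 (interval 0.17 to 9.52), which overlaps that of H1-1. Among the 65 members, 7 had more counts in the Ku80 library than in the vector library, and H1-1 had the most counts of these. The share of all features with more counts there was not computed. In sum the 6 H1 members held 26.9% of the member counts in the vector library and 26.5% in the Ku80 library.

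The H2A members held 6.30% of the member counts in the vector library and 6.97% in the Ku80 library. Of the 9, 4 had at least 100 counts, with differences from -0.29 to 1.16 and a median of 0.93. H2AC13 had 344 and 234 counts with a difference of 0.87, and H2AC12 had 314 and 95 counts with a difference of -0.29. The ratio of H2AC13 to H2AC12 unique pairs was 0.92 in the vector library (123 to 133 pairs) and 1.88 in the Ku80 library (79 to 42), a 2.03-fold change (1.27 to 3.27). H2AC14 had the highest difference of all members past the filter, 1.16 with 96 and 80 counts, but only 2 and 1 unique pairs. H2AC16 had 83 and 61 counts, a difference of 0.98, and 9 and 5 unique pairs. Most counts of H2AC14 and H2AC16 were thus of multimapping reads.

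H2AC15 had 0 counts in both libraries. All of its bases lie under an exon of another feature on the opposite strand, and reads that overlap several features were not assigned. In the strand columns, where that overlap can be resolved, it had 98 sense and 29 antisense pairs in the vector library and 21 and 10 in the Ku80 library. In all, 3 members were over 95% covered by exons of other features. H2AC7, with 85.3% of its bases covered, had 10 and 0 counts, and H2AC17, with 71.0% covered, had 18 and 3.

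Of the 10 H2B members, 5 had at least 100 counts, with differences from -1.08 to 0.85 and a median of 0.55. H2BC12 (CHM13_G0047146, chr6:27015177-27015671, minus strand) had 1522 and 584 counts, a difference of 0.04, and 708 and 263 unique pairs. H2BC5 had 511 and 286 counts with a difference of 0.59, H2BC4 had 322 and 176 with 0.55, and H2BC13 had 165 and 111 with 0.85. H2BC17 had 277 and 48 counts and a difference of -1.08, the lowest of the members past the filter. Its difference in unique pairs was -0.47 (122 and 18 pairs, interval -1.34 to 0.18), which is within the 2-fold limit. The 10 H2B members held 19.4% of the member counts in the vector library and 17.02% in the Ku80 library.

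Many H2A and H2B genes lie head to head and are read outward from a shared flank. Among the members, 4 such pairs had 239 to 267 bases between their starts. In counts per kilobase scaled to 1000000 counts per library, the level of H2AC12 was 34.7 in the vector library and 11.6 in the Ku80 library, against 155 and 65.9 for its partner H2BC12, so H2A was the lower of the pair at 0.22 and 0.18 of H2B. H2AC13 was the higher of its pair, at 34.6 and 26 against 17.1 and 12.7 for H2BC13, or 2.02 and 2.05 times. H2AC14 was at 10.2 and 9.39 against 0.76 and 2.03 for H2BC14, whose 7 and 17 counts were few. H2AC17 was at 1.87 and 0.34 against 30.0 and 5.74 for H2BC17, or 0.062 and 0.060 times, but most of H2AC17 is covered by another feature. In counts the order of levels within each pair was the same in both libraries. The unique pairs of H2AC14 and H2BC14 were 2 and 0 in the vector library and 1 and 2 in the Ku80 library, so in the Ku80 library the order of that pair was the opposite in unique pairs, which were too few to set it.

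The H3 members held 8.14% of the member counts in the vector library and 11.4% in the Ku80 library. Of the 6, 3 had at least 100 counts and all 3 lay above the median feature, at 0.41 to 1.14, while with TMM factors 2 of the 3 and against total counts none did. H3C2 (CHM13_G0047075, chr6:25897545-25898055, minus strand) had 565 and 433 counts, a difference of 1.04, and 266 and 204 unique pairs, with a difference in unique pairs of 1.84 (interval 1.57 to 2.11). Against H4C3, with 305 and 104 unique pairs, the ratio of H3C2 changed from 0.872 to 1.96, 2.25-fold (1.67 to 3.03). H3C1 had 197 and 97 counts with a difference of 0.41. H3C11 had 336 and 276 counts and a difference of 1.14, but only 21 and 2 unique pairs, all of them on the antisense strand, whose difference was of the opposite sign at -0.65 (interval -4.31 to 0.86). H3C7 had 72 and 22 counts, with all 32 and 11 of its unique pairs on the sense strand.

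The H4 members held 5413 counts in the vector library and 2604 in the Ku80 library, or 37.1% and 35.9% of the member counts, the most of the 5 families. In unique pairs, where multimapping reads are left out, H1 held the most with 1897 and 890 pairs, before H2B with 1302 and 549 and H4 with 1179 and 403. Of the 9, 6 had at least 100 counts, with differences from -0.90 to 0.65 and a median of 0.03. H4C11 (CHM13_G0047179, chr6:27693765-27694153, plus strand) had 1740 and 999 counts and a difference of 0.62, and H4C12 (CHM13_G0047180, chr6:27700847-27701233, minus strand) had 1491 and 873 and a difference of 0.65. In counts per kilobase and 1000000 counts these levels headed the members, at 226 and 144 for H4C11 and 195 and 126 for H4C12, but most of these counts could not be assigned to 1 copy. In unique pairs per kilobase and 1000000 unique pairs, H4C11 was 9th and 10th of the 65 members in the vector and the Ku80 library, and H4C12 was 24th and 22nd, while H2BC12 led the vector library and H1-4 the Ku80 library. Together they held 59.7% of the H4 counts in the vector library and 71.9% in the Ku80 library.

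The unique pairs showed H4C11 and H4C12 differently from the counts. H4C11 had 136 and 57 unique pairs, and H4C12 had 12 and 5. H4C3 had 305 and 104 unique pairs with 639 and 218 counts (difference -0.13), and H4C4 had 297 and 117 with 614 and 243 (0.09). H4C2 had 215 and 79 with 447 and 163 (-0.03), and H4C1 had 193 and 39 with 395 and 78 (-0.90). By unique pairs H4C3 was therefore the highest of the H4 members in the vector library and H4C4 in the Ku80 library. These 2 genes were close in both libraries, and no interval was taken for their ratio. H4C5, which is longer than the members, had 586 and 344 unique pairs. The ratio of H4C4 to H4C1 unique pairs was 1.54 in the vector library and 3.00 in the Ku80 library, a 1.95-fold change (1.28 to 3.01). H4C7, with 57 and 12 counts, had 17 of its 21 strand-assigned pairs in the vector library on the antisense strand.

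How far a member can be told apart from its copies was measured by the counts per unique pair. Each pair gives 2 counts, so a value near 2 means that few multimapping reads were counted. Of the 17 members with at least 40 unique pairs in the vector library, 14 lay between 2.03 and 2.50, and of the 13 in the Ku80 library, 11 lay between 2.06 and 2.31. Summed over the members it was 2.84 in the vector library and 3.21 in the Ku80 library. H4C12 was at 124 and 175, H4C11 at 12.8 and 17.5, H3C11 at 16 and 138, H2AC14 at 48 and 80, H2AC16 at 9.22 and 12.2 and H3C1 at 4.02 and 3.03. H2AC13 was at 2.80 and 2.96, and CHM13_G0047188 at 2.6 and 3.00. The counts of these 8 features include reads that map to other places as well. Over all features with at least 100 unique pairs, the median was 2.24 in the vector library and 2.51 in the Ku80 library, and over the 14 and 7 members with that many pairs it was 2.11 and 2.12.

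**Figure D3:**
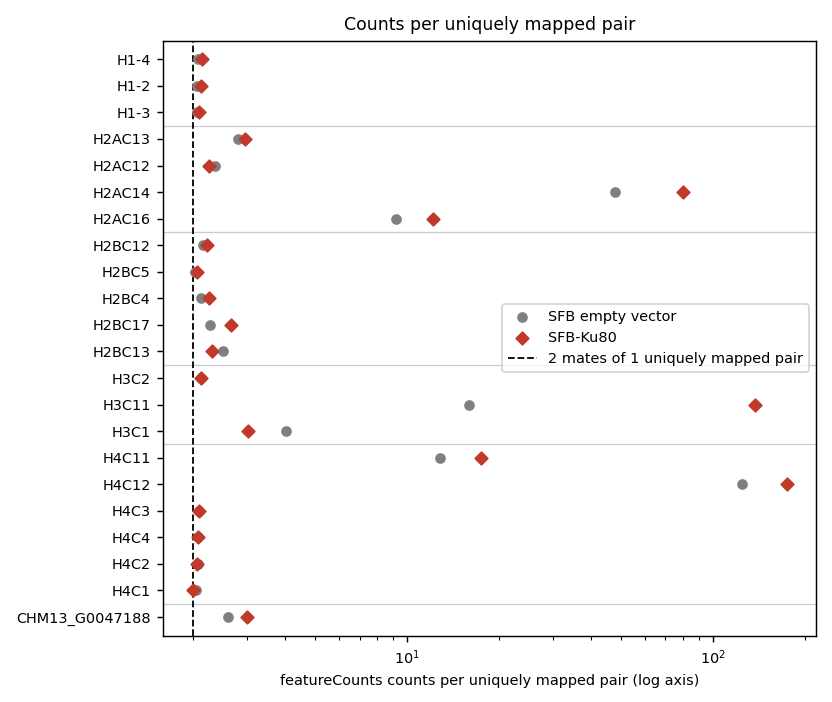
Counts per uniquely mapped pair of the 22 members with at least 100 counts, on a log axis, with circles for the vector library and diamonds for the Ku80 library. The dashed line marks the 2 counts that both mates of 1 pair give, and H4C12, H4C11, H3C11, H2AC14 and H2AC16 lie far to its right.

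On the strand columns the members were mainly sense. Of the strand-assigned pairs, 83.5% were sense in the vector library (exact interval 82.5 to 84.5) and 82.9% in the Ku80 library (81.3 to 84.4), against 75.1% and 67.6% of the pairs over all features. For the other features of 300 to 900 bases the share was 55.7% and 80.4%. The median over members with at least 40 pairs was 84.1% and 83.3%. By family the sense share was 88.4% in the vector library and 84.7% in the Ku80 library for H1, 80.7% and 88.4% for H3 and 83.4% and 83.9% for H4. In the vector library, 7 members with at least 4 pairs had more antisense than sense pairs, among them H3C11 (21 of 21 antisense), H4C7 (17 of 21), CHM13_G0047188 (23 of 35) and H2AC16 (9 of 10). CHM13_G0047188 has no name and 40.3% of its bases are covered by other features. It was the only member past the filter without a histone name, with 91 and 66 counts and a difference of 0.96.

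The other 25 members held 2.14% of the member counts in the vector library and 2.18% in the Ku80 library. RPS10P1, a ribosomal protein pseudogene, had 71 counts in the vector library and 0 in the Ku80 library and no unique pair in either library. The upper end of the exact interval of its log2 difference from the median feature was -2.81, and it is named after its values were seen. CD83P1 had 54 and 41 counts but 5 and 2 unique pairs. The vomeronasal receptor pseudogenes VN1R11P, VN1R12P and VN1R13P had 2 to 16 counts in the vector library. In all, 12 members had counts in the vector library and none in the Ku80 library, while 2 had the reverse. The share of all features with counts in only 1 library was not computed, so these numbers have no background. The median feature past the filter also had fewer counts in the Ku80 library, at a log2 ratio of -1.42.

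The members were compared with 3 sets that share a feature with them. The 637 other features of 300 to 900 bases past the filter had a median difference of 0.80, above that of the members, with 46.3% called higher and 29.7% called lower, and 7 of the 22 members lay above that median. In unique pairs the order was the opposite, at 0.51 for 296 such features and 0.89 for the members. The 8 histone features of the same interval outside the length range had a median of 0.36 in counts and 1.17 in unique pairs. Among them H3C10 had 272 and 236 counts and a difference of 1.22, and H2BC7 had 194 and 30 and a difference of -1.23. The 23 other features of the interval past the filter, which carry no histone gene name, had a median difference of -1.06, with 12 called lower and 2 called higher. They include the antisense gene H2BC6-AS1 and features without any name, of which CHM13_G0047181 spans H2AC15 and H2AC16. Their median in unique pairs was -0.51 over 18 features.

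Other histone genes were taken from lists. Of the 16 replication-dependent histone genes listed outside chromosome 6, 13 could be named and 12 had at least 100 counts. Their median difference was 0.30 and 11 lay above the median feature, while with TMM factors 3 did and against total counts none. In counts, 1 was called higher (H2AC21, 105 and 80 counts, 1.03) and none was called lower, where 26.8% and 25.3% of all features were. In unique pairs, 6 had at least 40 pairs, with a median of 0.88. Of these 2 were called higher and none lower, against 24.6% and 20.4% of all features. H4C14 and H4C15 had 2248 and 2234 counts in the vector library and 1240 and 1230 in the Ku80 library, with at most 23 unique pairs each. H2AC18, H3C14, H3C15 and H2BC20P, a pseudogene by name, had 1416 to 2259 counts in the vector library, with at most 18 unique pairs each. Most counts of these genes were thus of multimapping reads, which were counted at every place. The same reads can therefore enter several of the 12 differences. H2BC18 was lowest at -0.59. Replacement histones are made also outside S phase, mostly from genes with introns and polyadenylated mRNAs. Of 9 examined, 6 could be named, all 6 lay below the median feature in counts, and 4 were called lower, where 25.3% of all features were. The other scalings move every difference by the same amount, upward by at most 0.01. None of them could therefore have put 1 of the 6 above zero. H1-10, a replacement H1, had 1442 and 141 counts and a difference of -1.92. H3-3A, a gene of replacement H3.3, had 1318 and 215 with -1.19, and H2AX, which marks DNA breaks, had 993 and 289 with -0.36. In unique pairs the median of the 6 was -0.55 and 1 was called lower, against 20.4%, while H2AX lay above the median feature at 0.17. Of the 12 factors of histone mRNA transcription and 3′ processing, 5 could be named, with a median of -0.46 and 2 called lower against the same 25.3%, SYMPK at -1.19 and CSTF2 at -1.30.

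**Figure D4:**
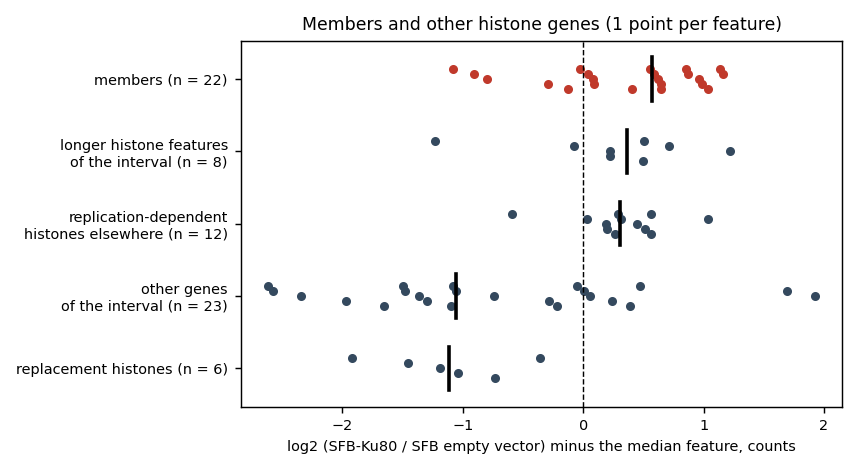
Log2 difference from the median feature in counts, 1 point per feature with at least 100 counts and a bar at the median, for the 22 members, 8 longer histone features of the interval, 12 replication-dependent histones elsewhere, 23 other features of the interval without a histone gene name and 6 replacement histones. The medians are 0.57, 0.36, 0.30, -1.06 and -1.12, and all 6 replacement histones lie below 0.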

How the data were processed

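PAR-CLIP libraries of HEK293T cells, 1 per group, were analysed from tables that the authors deposited as counts. Reads had been aligned to CHM13 v1.1 with STAR 2.7.6a by the authors and counted on features by featureCounts 2.0.2, which took pairs aligned at both ends and with fragments of at least 18 bases, counted multimapping reads at every place and ignored strand. Both mates were counted. They also deposited counts of uniquely mapped pairs from STAR, unstranded and by strand. Its second strand column was taken as sense because it held most pairs of all features.

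Ratios used a pseudocount of 1, a minimum of 100 counts (40 unique pairs) over both libraries and the median of all features past it as reference. Calls were at least 2-fold. Levels are counts per kilobase and 1000000 counts on features. Shares have exact binomial intervals and ratios exact conditional ones (scipy 1.17.1). Scripts were tested on simulated data. Alternatives used edgeR 4.0.16, DESeq2 1.42.0 (scaling factors only), other filters and other counters. BLAST bin files were not used here.

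Features were tied to RefSeq names of GRCh38.p14 by strand, span and spacing to neighbours, with no coordinates carried over. Of the 63494 features 28614 were named, by a rule devised after the tables had been seen. On chromosome 1, 930 of the 938 names compared with names in the study's table were the same or a synonym.

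The members and gene lists were chosen with earlier results of these data known. Named are the members with the 8 largest counts in each library, the 6 highest and 6 lowest differences among those past the filter, the 4 with the most unique pairs in SFB-Ku80, and any past the filter with at most 1 unique pair in both libraries. Other genes named were chosen after their values were seen. From the list of replacement histones 1 gene is not reported here.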

Additional observations from a re-analysis of the deposited data

How the results depend on the processing

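No paired analysis was possible because each group has 1 library, and no library could be left out. The median difference of the members from the median feature, 0.57, stayed above 0 in 9 of 12 alternatives and the summed ratio, 0.41, in 7 of 11. As a median over members with at least 40 pairs, the sense share was 84.1% and 83.3%. With no filter beyond 1 count, the median was -0.062, the summed ratio -0.070, and of 59 members 13 were called lower and 7 higher, against 25.1% and 27.7% of all features. With at least 20 counts, the median was 0.32 and the sum 0.13. Of 34 members 6 were lower and 3 higher, against 27.2% and 25.4% of all features. With at least 1000 counts only 5 members were left, with a median of 1.28. Of these 5 members 0 were lower and 3 higher, against 24.7% and 29.4% of all features. Against the main reference the same 5 lay at 0.04 (H2BC12) to 0.65 (H1-4). The sum was 1.07, but it was taken over all members and not over these 5. The reference was recomputed from the features past each count filter. The sums under these filters thus differ from 0.41 by the reference alone. With a pseudocount of 10 the median was 0.51. Of 22 members 0 were then lower and 2 higher, against 23.6% and 25.3% of all features. In unique pairs, the median was 0.89, the sum 1.04, 8 were higher and 0 lower, and in the sense column these were 1.07, 1.25, 13 and 0 (backgrounds 21.4% and 18.8%). With TMM, the median was 0.047, the sum -0.11, 3 were lower and 0 higher. Against total counts these were -0.71, -0.86, 9 and 0, and relative to the other short features -0.23, -0.38, 4 and 0. Members with 1 exon interval had a median of 0.41. At 4-fold 0 members were lower and 0 higher, against 8.64% and 8.15% of all features.

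The share of the members (0.0738% and 0.0406%, ratio 0.55) was 0.0847% and 0.157% in unique pairs (ratio 1.85), 0.0886% and 0.180% in the sense column (2.03) and 0.0791% and 0.0793% once the 5 most counted features of SFB-Ku80 were left out of the total (1.00). It was 0.0172% and 0.0102% of all read pairs (0.59), 0.0687% and 0.0373% for members with 1 exon interval, and 0.0546% and 0.0303% without H1-2 and H1-4. The median counts per unique pair over members with at least 40 pairs was 2.12 (SFB empty vector) or 2.14 (the Ku80 library). The members had 14594 and 7258 counts and 5133 and 2262 unique pairs, fewer in the Ku80 library by both measures. The totals behind the shares were 19775629 and 17892815 counts, and 6062669 and 1443251 unique pairs on features. The cause of the reversals was not tested. With 1 library each, a difference between libraries and one between groups cannot be told apart.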

Other observations

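Between the histone genes lie the butyrophilin genes, which code for surface proteins of the immunoglobulin family with parts in lactation and T cell recognition. Of 8 of them in the interval, 6 had at least 100 counts, and their median log2 difference from the median feature was -1.29, from -1.97 for BTN3A3 (324 and 30 counts) to -0.74 for BTN2A3P (331 and 73), with 5 called at least 2-fold lower, where 25.3% of all features were. In unique pairs the median of the 6 was -0.71 and 2 were called lower, against 20.4% of all features. Neighbouring PRSS16, a serine protease of the thymus, had 856 and 62 counts and a difference of -2.34, and LINC01012 had 558 and 33 with -2.62. ABT1, which activates basal transcription, was at -1.36. TRIM38 lay above the median feature at 0.47 with 750 and 388 counts.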
